A study of Mus musculus with 8 samples.

Results

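The TGF-beta and BMP system was described in tumors grown from cxC26 cells, a cachexia-inducing line of the mouse C26 colon carcinoma, with and without disruption of the IL-6 gene. Its members were taken by gene name, as the genes whose symbol begins with Bmp, Bmpr, Gdf, Tgfb, Tgfbr, Smad or Ltbp followed by a number, or with Acvr, leaving out Gdf15 and Bmp2k. This rule found 49 of the 27179 genes in the table. RNA sequencing covered 4 tumors of cxC26 scr cells, which carry the CRISPR/Cas9 vector with a scrambled guide RNA, and 4 tumors of cxC26 IL6KOs1 cells, a single subclone in which IL-6 had been targeted with the same vector. All 8 tumors grew under the skin of male CD2F1 mice, used at 13 to 18 weeks of age by the study's methods. Its general methods kept mice until they passed a set limit of body weight loss, which its sequencing methods do not restate. In some of the study's other experiments in CD2F1 mice the IL6KOs1 cells were injected in a larger number and took longer to cause cachexia. The number of injected cells and the day of collection are not given for the sequenced tumors. Knockout, subclone and tumor age therefore cannot be told apart in these data. The comparison asks which of these signalling genes differed between tumors with and without IL-6 of their own.

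TGF-beta and BMP ligands are secreted dimers that bring a type II and a type I receptor kinase together on the cell surface. TGF-beta, activin and GDF11 signal mainly through SMAD2 and SMAD3, BMPs through SMAD1, SMAD5 and SMAD9, and both branches share SMAD4, while SMAD6 and SMAD7 block the pathway. TGF-beta is stored in the matrix in a latent complex with latent TGF-beta binding proteins (LTBPs) until integrins or proteinases release it, and in colon carcinoma the pathway is known both for restraining epithelial growth and for driving the fibroblast-rich stroma. By role the 49 members were 3 TGF-beta ligands, 11 BMP ligands (with Gdf2, which is also known as a BMP), 8 GDF ligands, 4 LTBPs, 7 type I and 4 type II receptors, 2 co-receptors and 8 SMADs. Both remaining members share the naming pattern but are no ligand, receptor, SMAD or LTBP. Bmp1 encodes a procollagen proteinase, and Tgfb1i1 encodes a focal adhesion adaptor.

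Values are log2 CPM, the log2 of read counts scaled to library size with a small offset, so that a difference of 1 is a 2-fold difference. They rest on 14158989 to 17048062 reads per tumor. Only genes that reached 1 CPM in 4 or more tumors, 13262 in all, were tested with limma, and a gene was called when its Benjamini-Hochberg adjusted p over all of them was under 0.05. Fold changes are cxC26 IL6KOs1 minus cxC26 scr. Il6 itself had 326 to 438 reads among cxC26 scr tumors against 56 to 86 among the cxC26 IL6KOs1 tumors, a log2 fold change of -2.45 (limma, adjusted p = 1.76e-06), in the direction of the labels. Guide-directed cuts need not remove the transcript, so these reads do not measure the protein. Of the epithelial markers Krt20 was abundant, with 17390 to 22185 reads, whereas Epcam had at most 14 reads, Krt19 at most 1 and Cldn4 had 0 in every tumor. Krt18 had 21 to 30 reads in cxC26 scr and 140 to 282 in knockout tumors, and Cdh1 (E-cadherin) 17 to 37 and 45 to 87. Both were called higher (limma, adjusted p = 3.02e-06 and 0.00251).

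Of the 49 members, 32 passed the filter on low values, and 12 of the 32 were called. Each of the 32 reached 1 CPM in at least 1 tumor of each group. Gdf3 did so in 2 cxC26 scr and 4 cxC26 IL6KOs1 tumors, so its knockout tumors alone met the filter. Bmp2, Gdf3 and Ltbp3 were higher in the cxC26 IL6KOs1 tumors. Gdf11, Acvr2b, Tgfb2, Bmpr2, Tgfb1, Tgfbr3, Tgfbr1, Acvr1 and Smad5 were lower. These 12 make up 37.5% of the tested members, beside 39.8% called among all 13262 tested genes, so the share is close to the background. By direction, 3 members were higher and 9 lower, where 19.1% of all tested genes were higher and 20.7% lower. The median log2 fold change was -0.05 over the 32 members and -0.003 over all tested genes. With a 2-fold difference required as well, Bmp2 and Gdf3 remained higher, and Gdf11, Acvr2b, Tgfb2 and Bmpr2 lower, where 6.25% of all tested genes were at least 2-fold higher and 3.93% at least 2-fold lower. In 10 of the 32 members (31.25%) the values of the 4 tumors of each group did not overlap, against 37.1% of all tested genes. The uncalled members had 95% intervals of their log2 fold change that lay between -0.74 and 1.04.

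Bulk tumors hold host cells, and a lower value may come from fewer cells of a type or from less RNA per cell, which cannot be told apart here. All 8 macrophage markers were called higher in the knockout tumors, with a summed CPM of 793.1 to 1054 in cxC26 scr and 1631 to 2907 in cxC26 IL6KOs1 tumors. The 6 tested markers of T and cytotoxic lymphocytes were also higher, with a summed CPM of 1.55 to 6.61 in cxC26 scr and 15.45 to 47.4 in cxC26 IL6KOs1 tumors. Of these, Cd8a, Cd3g and Nkg7 reached 1 CPM in knockout tumors only. They passed the filter through the group where they are high, so their calls are not read as a result. Prf1 rested mostly on cxC26 IL6KOs1 tumor 1, with 190 reads there and 13 to 16 in the other knockout tumors. Of 10 fibroblast markers 2 were higher and 5 lower, with sums of 8386 to 11070 and 5785 to 8930. The 9 endothelial markers held 1 call, lower, the 8 pericyte and smooth muscle markers and the 4 tested adipocyte markers none, and the 5 tested platelet markers 1, higher, which was Itgb3. Of the 3 tested epithelial markers 2 were higher, Krt18 and Cdh1, and the summed CPM of that list was 1079 to 1288 and 1325 to 1450. Nearly all of that sum was Krt20, with a mean CPM of 1181 in cxC26 scr and 1368 in knockout tumors. Krt20 was not called (limma, adjusted p = 0.1015). The part of these cell types in the values of Bmp2, Tgfb1 and the other members was not tested.

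**Figure D1:**
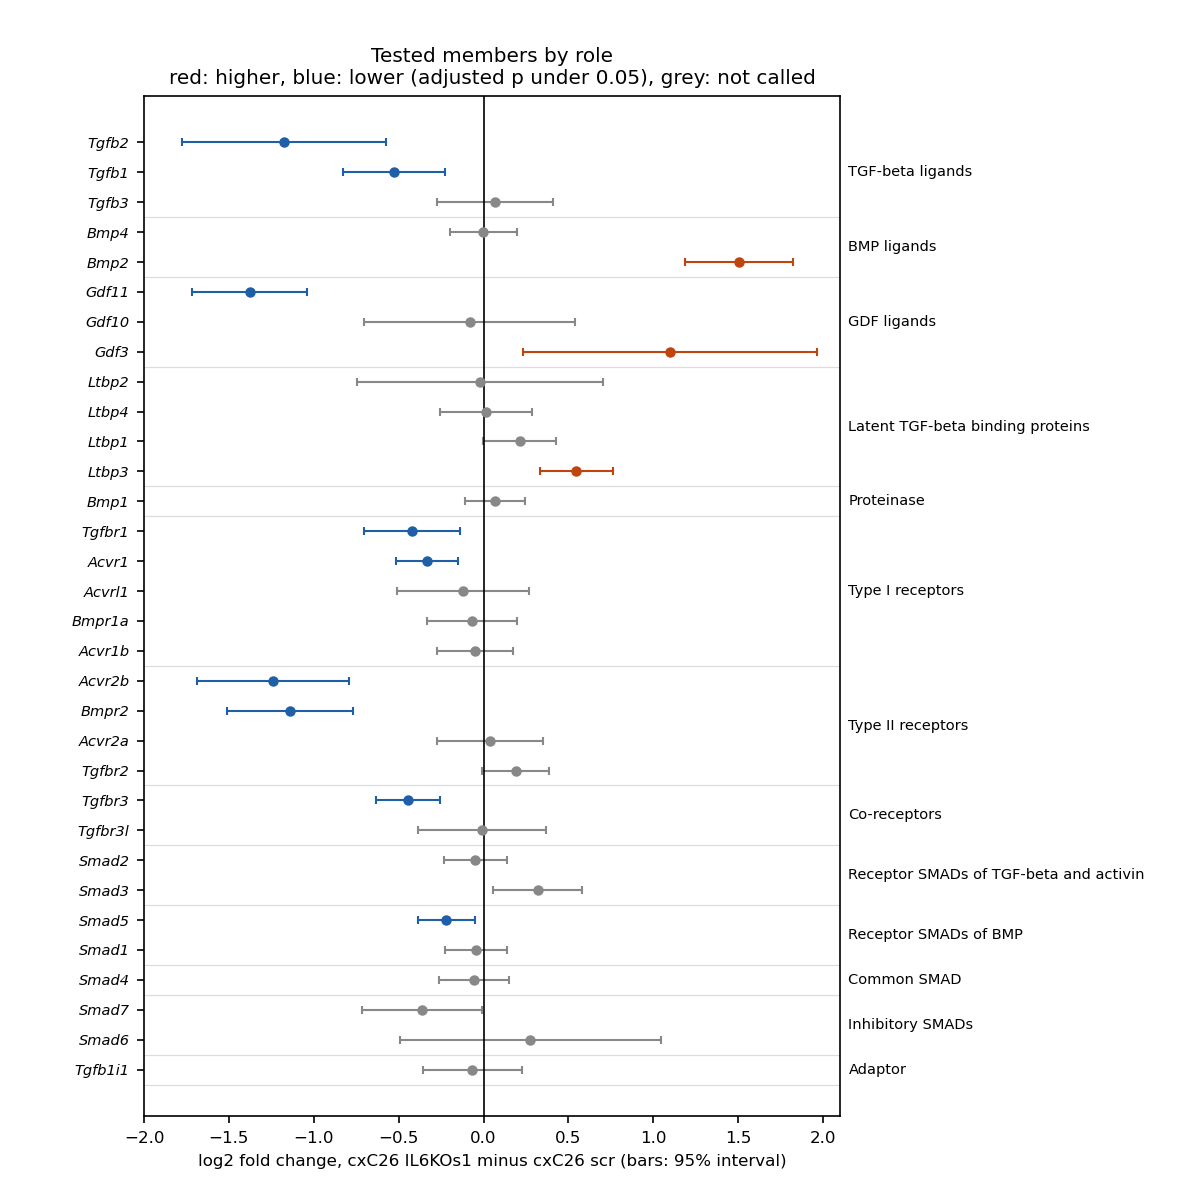
Log2 fold change (cxC26 IL6KOs1 minus cxC26 scr, n = 4 tumors per group) of the 32 tested members on the horizontal axis, grouped by role, with points for the limma estimate, bars for its 95% interval and colours for the call at an adjusted p of 0.05. Bmp2, at 1.51, lies farthest to the right, and Gdf11, Acvr2b, Tgfb2 and Bmpr2, between -1.14 and -1.38, lie farthest to the left.

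The promoter sequences of Gdf11 and Tgfb2 are printed because both ligand genes were more than 2-fold lower in the knockout tumors. They are the 250 bases before the annotated start in RefSeq (GRCm38.p6), where 34 of the 49 members have an entry. Both genes lie on the minus strand, Gdf11 with the window chr10:128891719-128891968 and Tgfb2 with chr1:186705990-186706239, and the sequences read 5′ to 3′ towards the start. The Tgfb2 window lies within the annotated span of the gene, which has a start farther upstream. Capitals mark matches to the SMAD box CAGAC on either strand.
Gdf11: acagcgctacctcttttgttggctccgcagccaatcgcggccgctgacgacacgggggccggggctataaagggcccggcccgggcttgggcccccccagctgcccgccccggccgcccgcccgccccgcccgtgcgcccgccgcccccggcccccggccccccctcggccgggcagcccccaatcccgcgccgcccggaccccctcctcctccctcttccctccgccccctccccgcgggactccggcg
Tgfb2: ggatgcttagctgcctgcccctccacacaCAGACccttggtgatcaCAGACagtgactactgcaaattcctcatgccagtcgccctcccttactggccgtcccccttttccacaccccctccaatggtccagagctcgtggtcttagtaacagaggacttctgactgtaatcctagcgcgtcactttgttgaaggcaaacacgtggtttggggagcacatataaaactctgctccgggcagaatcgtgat
The Tgfb2 window held 2 SMAD boxes and that of Gdf11 none. Of all 32851 windows of this length, 42.2% held at least 1 SMAD box. The GC-rich SMAD box GGCGCC (9.59% of all windows), the STAT element TTCNNNGAA (7.02%) and the AP-1 element TGANTCA (6.75%), which share no overlapping matches here, were found in neither. The windows of Acvr2b and Bmpr2, not printed because they overlap annotated exons of these genes, held 1 SMAD box and 1 GC-rich SMAD box, respectively. G and C made up 81.2% of the Gdf11 window and 53.6% of the Tgfb2 window, beside a median of 52.4% over all windows. A match of letters is a description of the window and does not show that a factor binds there.

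Among the TGF-beta ligands, Tgfb1 and Tgfb2 fell in the cxC26 IL6KOs1 tumors and Tgfb3 was not called. Tgfb1, the most widely expressed isoform and a suppressor of T cells, had 6.85, 6.42, 6.42 and 6.38 log2 CPM in cxC26 scr tumors 1 to 4 and 6.35, 5.94, 5.82 and 5.86 in cxC26 IL6KOs1 tumors 1 to 4. Every knockout tumor was below every cxC26 scr tumor, but cxC26 scr tumor 1 stood apart from the rest of its group, and the log2 fold change was -0.53 ± 0.14 (SE; limma, adjusted p = 0.0102). Tgfb2, at 0.58 CPM per kilobase of exon in cxC26 scr tumors beside 18.4 for Tgfb1, had 2.20, 1.55, 1.40 and 1.77 log2 CPM against 0.11, 0.63, 0.45 and 1.03, a log2 fold change of -1.18 ± 0.27 (SE; adjusted p = 0.00567) that left 44.3% of the cxC26 scr level. The groups did not overlap, although Tgfb2 rests on 212 reads over the 4 cxC26 scr tumors and 88 over the 4 knockout tumors. Tgfb3 ranged from 4.30 to 4.69 in cxC26 scr tumors and from 4.11 to 4.85 in knockout tumors (log2 fold change 0.07, 95% interval -0.27 to 0.41). Tgfb1 (chr7:25687002-25705077) lies in a 10 Mb window whose other tested genes had a median log2 fold change of -0.34. With that median subtracted, the difference of Tgfb1 was -0.18 and did not pass (limma, adjusted p = 0.336), whereas Tgfb2 (chr1:186622787-186709697), in a window with a median of -0.37, kept its call.

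Per kilobase of exon, on a CPM scale, the 3 TGF-beta ligands together came to 25.4 ± 3.93 in cxC26 scr against 19.9 ± 1.55 in knockout tumors (SD, n = 4). Tgfb1 made up 72.1% ± 1.11 of that sum in the cxC26 scr tumors and 63.9% ± 7.88 in the knockout tumors, Tgfb3 made up 25.6% ± 1.18 and 34.8% ± 7.66, and Tgfb2 never more than 2.51%. The ranges of the shares of Tgfb1 and Tgfb3 overlapped between the groups.

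Bmp2, a ligand known for inducing bone and cartilage that signals through SMAD1 and SMAD5, had the largest log2 fold change in size among the 32 tested members. It had 6.17, 5.36, 5.57 and 5.76 log2 CPM in the cxC26 scr tumors and 7.26, 7.07, 7.29 and 7.25 in the cxC26 IL6KOs1 tumors. The knockout tumors lay closer together than the cxC26 scr tumors and all above the highest cxC26 scr tumor. Bmp2 rose 2.84-fold (log2 fold change 1.51 ± 0.15 SE, 95% interval 1.19 to 1.83; limma, adjusted p = 2.16e-05). The gene lies at chr2:133552159-133562896, in a window whose 55 other tested genes had a median of -0.23, so it moved against its neighbours. Bmp4, the other BMP ligand that passed the filter, ranged from 5.43 to 5.66 log2 CPM in cxC26 scr tumors and from 5.42 to 5.68 in knockout tumors. Its log2 fold change was -0.001, with a 95% interval of -0.20 to 0.20. Reads of Bmp4 may include those of Gm15217 and Gm15222, which overlap it.

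Per kilobase, Bmp2 was below Bmp4 in the control tumors and above it in the knockout tumors. The order in the controls depends on the exon lengths used. Without that scaling, the mean CPM in cxC26 scr was 53.62 for Bmp2 and 46.75 for Bmp4. Bmp2 had 15.1 ± 3.77 CPM per kilobase of exon (SD, n = 4) in cxC26 scr and 42.0 ± 2.79 in cxC26 IL6KOs1 tumors, whereas Bmp4 had 20.8 ± 1.40 and 20.8 ± 1.53. Bmp2 thus made up 41.1% ± 4.76 of the summed BMP ligand level in the cxC26 scr tumors and 66.4% ± 2.93 in the knockout tumors, and the ranges did not overlap. The sum itself was 36.3 ± 4.96 and 63.2 ± 2.01. The other 9 BMP ligands did not pass the filter. Bmp7, known for its role in kidney development, was read 13, 8, 13 and 10 times in cxC26 scr tumors 1 to 4 but 2, 4, 0 and 3 times in the knockout tumors. Bmp6 had 5 to 16 reads and 5 to 29. Bmp3 had at most 11 reads in any tumor, and Bmp5, Bmp8a, Bmp8b, Bmp10, Bmp15 and Gdf2 at most 3. No test was made on these.

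**Figure D2:**
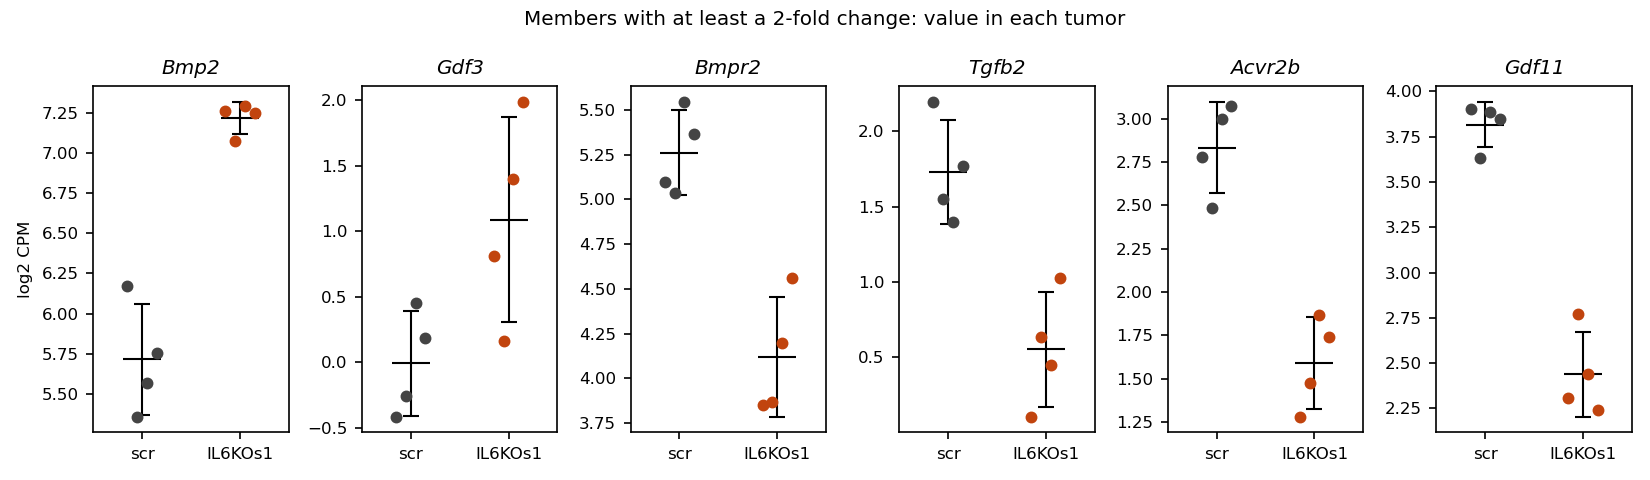
Log2 CPM (vertical axis, a separate scale for each gene) in each tumor of cxC26 scr (scr) and cxC26 IL6KOs1 for the 6 members called with at least a 2-fold change, with points for tumors, long lines for group means and bars for the SD. The groups are separate for Bmp2, Bmpr2, Tgfb2, Acvr2b and Gdf11 and overlap for Gdf3.

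In the GDF family, Gdf11 fell and Gdf3 rose. Gdf11, a close relative of myostatin that binds activin type II receptors, had 3.90, 3.63, 3.89 and 3.85 log2 CPM in the cxC26 scr tumors and 2.31, 2.77, 2.44 and 2.24 in the knockout tumors. The gap between the groups was larger than the spread within either, and the knockout tumors kept 38.5% of the cxC26 scr level (log2 fold change -1.38 ± 0.16 SE, 95% interval -1.72 to -1.04; limma, adjusted p = 6.39e-05). Gdf11 lies at chr10:128880524-128891718, and its 99 tested neighbours had a median log2 fold change of 0.28, opposite in sign. Gdf3, a nodal-related ligand also found in adipose tissue, had -0.42, -0.26, 0.45 and 0.19 log2 CPM against 0.81, 0.16, 1.40 and 1.99. The groups overlapped, and the log2 fold change of 1.10 ± 0.40 (SE; limma, adjusted p = 0.0445) rests on 61 reads over the cxC26 scr tumors and 141 over the knockout tumors. The call of Gdf3 was lost, with adjusted p-values from limma between 0.0682 and 0.129, when any 1 of cxC26 scr tumors 1, 2 and 4 or of cxC26 IL6KOs1 tumors 3 and 4 was left out. The smallest of these fold changes was 0.80, without cxC26 IL6KOs1 tumor 4. Gdf10 was not called (log2 fold change -0.08, 95% interval -0.70 to 0.54) and ranged from 1.62 to 2.85 within the knockout group. Of the untested GDF genes, Gdf9 had 6 to 10 reads in cxC26 scr and 1 to 8 in knockout tumors, Gdf1 had 0 everywhere, and Gdf5, Gdf6 and Gdf7 had at most 2.

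Ltbp3 was the called member among the 4 LTBPs. Ltbp3 was 7.54, 7.10, 7.33 and 7.15 log2 CPM in the cxC26 scr tumors and 7.79, 7.90, 7.79 and 7.83 in the knockout tumors, with no overlap. It rose by 0.55 ± 0.10 (SE) on the log2 scale (limma, adjusted p = 0.00123). Its region on chromosome 19 (Ltbp3 lies at chr19:5740900-5758536) had a median of 0.33 over 187 other genes, and after that median was subtracted the difference was 0.22 and did not pass (adjusted p = 0.119). Ltbp1, at 63.6 CPM per kilobase of exon in cxC26 scr tumors, had log2 CPM values of 9.55, 9.42, 9.34 and 9.32 against 9.46, 9.77, 9.66 and 9.61, and was not called (log2 fold change 0.21, 95% interval -0.001 to 0.43; adjusted p = 0.105). Ltbp2 and Ltbp4 had log2 fold changes of -0.02 and 0.02. For Ltbp2 the tumors of the same group differed widely, from 4.34 to 5.71 in cxC26 scr and from 4.32 to 5.64 in the knockout group. Per kilobase, the LTBPs summed to 121.4 ± 8.20 CPM in cxC26 scr and 140.2 ± 9.61 in knockout tumors (SD, n = 4), of which Ltbp1 made up 52.4% and 52.7%. Bmp1, which trims procollagen and cleaves the antagonist chordin, had 7.21, 7.22, 7.22 and 7.25 log2 CPM against 7.35, 7.44, 7.15 and 7.22, and was not called.

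**Figure D3:**
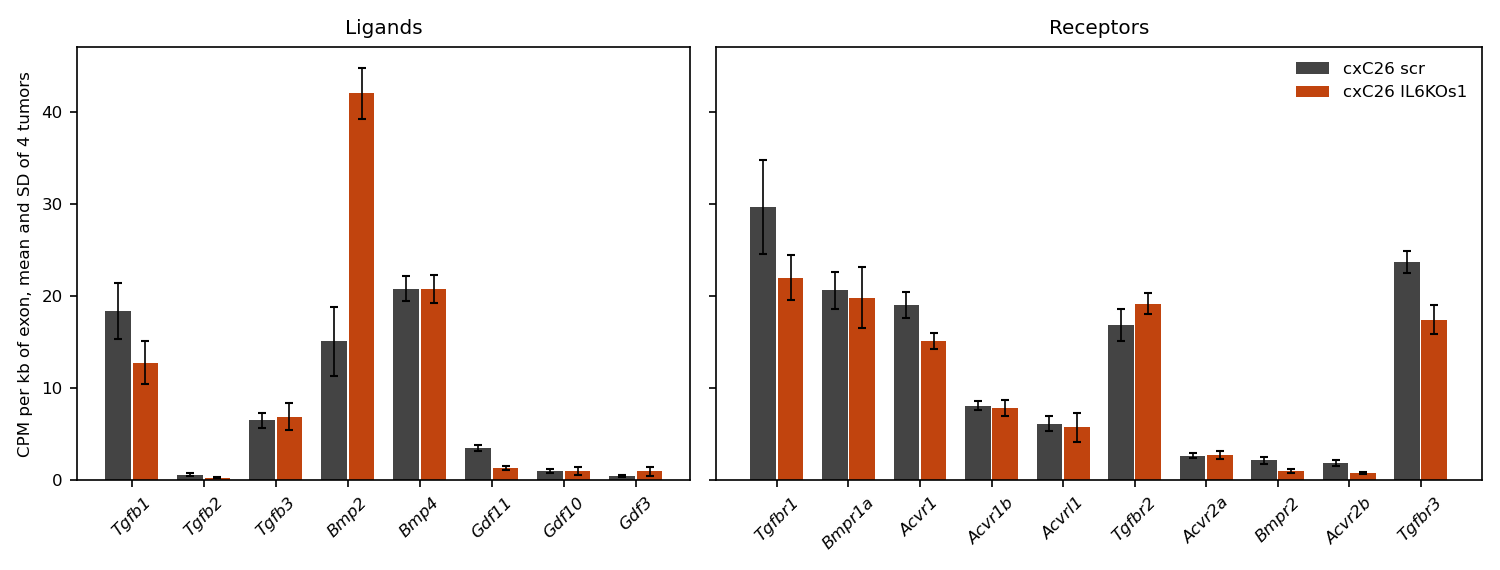
Mean level in CPM per kilobase of exon (vertical axis, from 0) of the ligands and the receptors in the 4 cxC26 scr (dark) and the 4 cxC26 IL6KOs1 tumors (orange), with bars for the SD. Bmp2 is the one ligand that stands far above its control level, at 42.0 against 15.1, and Bmpr2 and Acvr2b are low in both groups beside Tgfbr2.

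Type I receptors, the kinases that phosphorylate the SMADs, were lower or uncalled. Tgfbr1, the type I receptor of TGF-beta, had 7.23, 7.55, 7.73 and 7.82 log2 CPM in the cxC26 scr tumors and 7.25, 6.91, 7.20 and 7.28 in the knockout tumors. The groups overlapped because cxC26 scr tumor 1 lay among the knockout tumors. Tgfbr1 fell by 0.42 on the log2 scale (SE 0.13; limma, adjusted p = 0.0225), but not past the threshold when cxC26 scr tumor 3 (adjusted p = 0.0696), cxC26 scr tumor 4 (0.0734) or cxC26 IL6KOs1 tumor 2 (0.0610) was left out. Acvr1, a receptor of BMPs and activins, was 6.42 to 6.65 in the cxC26 scr tumors and 6.08 to 6.28 in the knockout tumors, a log2 fold change of -0.33 (limma, adjusted p = 0.00877). Against the median of its region the difference of Acvr1 was -0.24, just outside the threshold (adjusted p = 0.0508). Bmpr1a, the main type I receptor of BMP2 and BMP4, Acvr1b, which serves activin, and Acvrl1, known from endothelium, had log2 fold changes of -0.07, -0.05 and -0.12 and were not called. The type I receptors below the filter were Acvr1c, with 2 to 14 reads, and Bmpr1b, with 6, 0, 2 and 0 reads in cxC26 scr and 13, 10, 7 and 9 in knockout tumors. Tgfbr1, Bmpr1a and Acvr1 were the most abundant type I receptors per kilobase in cxC26 scr tumors, at 29.7 ± 5.10, 20.6 ± 2.04 and 19.0 ± 1.41 CPM (SD, n = 4). Bmpr1a and Acvr1 overlapped within their spread.

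Of the 4 type II receptors, which bind the ligand and activate the type I kinase, 2 fell by more than 2-fold and 2 were not called. Bmpr2, the main type II receptor of BMPs, had 5.10, 5.04, 5.55 and 5.36 log2 CPM in the cxC26 scr tumors and 3.85, 3.87, 4.20 and 4.56 in the knockout tumors. Acvr2b, a receptor of activins, myostatin and GDF11, had 2.78, 2.48, 3.00 and 3.07 against 1.28, 1.47, 1.87 and 1.74. In both genes every knockout tumor was below every cxC26 scr tumor. The log2 fold change of Bmpr2 was -1.14 ± 0.17 (SE; limma, adjusted p = 0.000389) and that of Acvr2b -1.24 ± 0.20 (adjusted p = 0.000696), which left 45.4% and 42.3% of the cxC26 scr level. Bmpr2 (chr1:59764279-59878081) lies in a region with a median of -0.30, and against that median its difference was -0.84. Acvr2b (chr9:119401583-119442148) lies in a region with a median of 0.02. The related receptor Acvr2a, which binds many of the same ligands, ranged from 3.72 to 4.07 and from 3.64 to 4.16 (log2 fold change 0.04, 95% interval -0.27 to 0.35).

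Tgfbr2, the type II receptor of TGF-beta, had 7.30, 6.97, 7.09 and 7.05 log2 CPM against 7.20, 7.41, 7.31 and 7.25. Its log2 fold change was 0.19, with a 95% interval of -0.01 to 0.38, and it was not called (limma, adjusted p = 0.114), although it passed without cxC26 scr tumor 1 (0.26, adjusted p = 0.0252). Per kilobase, the type II receptors summed to 23.5 ± 1.70 CPM in cxC26 scr and 23.7 ± 0.871 in knockout tumors. Within that sum Tgfbr2 made up 71.7% ± 3.50 and 81.0% ± 2.93, Acvr2a 11.4% and 11.7%, Bmpr2 9.16% ± 1.40 and 4.15% ± 0.963, and Acvr2b 7.76% ± 1.19 and 3.24% ± 0.536 (SD, n = 4). The ranges of all but Acvr2a were separate between the groups. The order of Bmpr2 and Acvr2a depends on the exon lengths used. Without that scaling, the mean CPM of Bmpr2 and Acvr2a was 38.69 and 15.13 in cxC26 scr and 17.71 and 15.64 in knockout tumors. For the co-receptors, Tgfbr3 (betaglycan), which presents TGF-beta2 and inhibin, had 7.25, 7.18, 7.34 and 7.32 log2 CPM against 6.70, 6.78, 7.01 and 6.83. It fell by 0.45 on the log2 scale without overlap (SE 0.09; limma, adjusted p = 0.00172), and the related Tgfbr3l was not called (log2 fold change -0.01).

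The SMAD genes had small differences. Smad5, a receptor SMAD of the BMP branch, was the called gene among them, with 7.40, 7.45, 7.42 and 7.47 log2 CPM in the cxC26 scr tumors and 7.15, 7.12, 7.23 and 7.36 in the knockout tumors. The log2 fold change was -0.22 ± 0.08 (SE; limma, adjusted p = 0.0411), and the call did not survive leaving out any 1 of cxC26 scr tumors 2, 3 and 4 or cxC26 IL6KOs1 tumors 1, 2 and 3, with adjusted p-values from 0.0792 to 0.103. Smad1, which acts beside it, had a log2 fold change of -0.05. Smad9 was read 3, 4, 3 and 3 times in cxC26 scr tumors 1 to 4 but 0 times in each knockout tumor, too few for a test or a fold.

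In the TGF-beta branch, Smad2 had 5.93, 6.05, 6.06 and 6.06 log2 CPM against 5.97, 5.88, 5.91 and 6.15, and Smad3 had 5.30, 5.25, 5.62 and 5.43 against 5.997, 5.62, 5.74 and 5.52. Smad2 was not called (log2 fold change -0.05, 95% interval -0.24 to 0.14). Smad3 lay just outside the threshold (0.32 ± 0.12 SE; limma, adjusted p = 0.0531), and inside it without cxC26 scr tumor 3 (0.39, adjusted p = 0.0351) or cxC26 IL6KOs1 tumor 4 (0.39, adjusted p = 0.0322). With all 8 tumors it also passed under quantile normalization (adjusted p = 0.0295), re-centring by the median (0.0436) and a stricter filter on low values (0.0497). The shared Smad4 had 6.79, 6.56, 6.51 and 6.52 against 6.47, 6.68, 6.59 and 6.41, and its interval ran from -0.26 to 0.15. The inhibitory Smad7, itself a target of TGF-beta signalling, had 4.996, 4.82, 4.51 and 4.90 against 4.83, 4.28, 4.10 and 4.55. Its log2 fold change of -0.36 did not pass (limma, adjusted p = 0.0979) but did without cxC26 IL6KOs1 tumor 1 (-0.49, adjusted p = 0.0197). Smad6, inhibitory in the BMP branch, was not called (0.28, 95% interval -0.49 to 1.04). The adaptor Tgfb1i1 had 4.51, 4.53, 4.57 and 4.36 against 4.52, 4.75, 4.21 and 4.24 and was not called either.

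**Figure D4:**
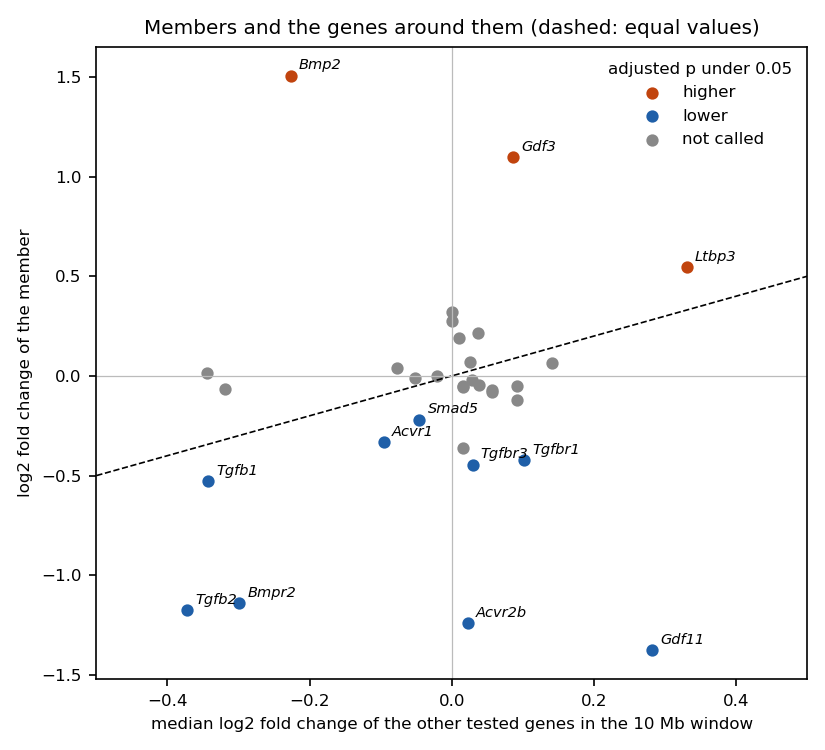
Log2 fold change of each tested member (vertical axis) against the median log2 fold change of the other tested genes in the same fixed 10 Mb window (horizontal axis), with the dashed line where both are equal. For Acvr2a, with 7 other tested genes in its window, the median of its chromosome is used. Ltbp3 and Tgfb1 lie 0.22 and -0.18 from the line, while Bmp2, Gdf11 and Acvr2b lie far from it.

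The medians of these regions ran from -0.37 around Tgfb2 to 0.33 around Ltbp3. Of the 12 called members, 7 had the sign of their region. All 9 that fell lay below their region's median, which was likely beforehand, as they were picked for being lower. The same counts were not made over all called genes. When the regional median was subtracted, Bmp2 remained higher and 6 members lower, the calls of Gdf3, Ltbp3, Tgfb1, Acvr1 and Smad5 being lost and that of Ltbp4 gained as higher (limma, log2 difference 0.36, adjusted p = 0.0449). The part of the regional shifts in these results was not tested further.

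The other genes of the pathway were read from 7 lists. Of the 105 listed genes that were tested, each counted once, 26 were higher and 31 lower, with a median log2 fold change of -0.07. Of the tested genes of these lists 54.3% were called, beside the 39.8% of all tested genes. The lists were not chosen blind to these data, and nothing particular to them is read from that share.

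Activin beta subunits form the activins, which share receptors with Gdf11. Inhba had 8.08, 7.90, 8.01 and 7.73 log2 CPM in the cxC26 scr tumors and 6.95, 7.05, 7.21 and 7.51 in the knockout tumors, and Inhbb had 6.21, 5.76, 5.84 and 5.73 against 4.56, 4.39, 4.84 and 4.18. Neither gene overlapped between the groups. Inhba fell by 0.75 and Inhbb by 1.39 on the log2 scale (limma, adjusted p = 0.000682 and 4.69e-05), and their summed level per kilobase was 52.4 ± 5.92 CPM in cxC26 scr and 28.3 ± 3.70 in knockout tumors (SD, n = 4). These were the 2 calls among the 4 tested ligands of the list. Mstn, which encodes myostatin, the muscle growth inhibitor, was 1.503 higher on the log2 scale but not called (adjusted p = 0.131), and it varied from -1.62 to 2.46 within the knockout group. Without cxC26 IL6KOs1 tumor 2, the lowest of that group, the difference was 2.28 (limma, adjusted p = 0.00772). Skeletal muscle markers varied as well, their summed CPM running from 8.64 to 163.8 in cxC26 scr and from 25.4 to 345.9 in knockout tumors. Myh1 alone of these 7 markers was called, and the part of muscle in the Mstn values was not tested.

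Extracellular antagonists bind ligands and keep them from their receptors. Of the 16 tested genes of their list, which also holds the pseudoreceptor gene Bambi, 4 rose and 2 fell. Chrd, the BMP antagonist chordin, had 2.099, 2.28, 2.46 and 2.42 log2 CPM against 3.27, 3.38, 3.42 and 3.19, a log2 fold change of 1.00 (limma, adjusted p = 0.000397), and its reads may include those of the overlapping Thpo. Bmper, a BMP-binding protein, rose by 0.63 (adjusted p = 0.0127). Bgn, a matrix proteoglycan that binds TGF-beta, rose by 1.03 (adjusted p = 0.0232). Crim1 was the fourth that rose. Grem1, the BMP antagonist gremlin, fell by 0.45 (adjusted p = 0.0258) and Bambi, a pseudoreceptor without a kinase domain, fell by 0.91 (adjusted p = 0.0208). The call of Bgn was lost without cxC26 scr tumor 3 or 4 or cxC26 IL6KOs1 tumor 2 (limma, adjusted p up to 0.0731). That of Bambi was lost without cxC26 scr tumor 2 or 3 or cxC26 IL6KOs1 tumor 3 (up to 0.0663), and that of Grem1 without cxC26 scr tumor 2, 3 or 4 or cxC26 IL6KOs1 tumor 2 or 3 (up to 0.0823). Fst, the activin and GDF11 trap follistatin, was abundant and not called (log2 fold change -0.30, adjusted p = 0.0818), but passed without cxC26 scr tumor 2 (-0.39, adjusted p = 0.038) or cxC26 IL6KOs1 tumor 2 (-0.38, adjusted p = 0.0346). Nog, which encodes noggin, had 1 to 8 reads in cxC26 scr and 1 to 18 in knockout tumors and was not tested.

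Genes that release or store latent TGF-beta made up 16 tested genes, of which 6 rose and 3 fell. Mmp9, a gelatinase able to activate latent TGF-beta, had 2.77, 3.27, 2.09 and 1.80 log2 CPM in the cxC26 scr tumors and 7.43, 7.40, 8.29 and 7.89 in the knockout tumors. It rose 38.6-fold (log2 fold change 5.27; limma, adjusted p = 6.72e-07). Thbs1, thrombospondin, which activates the latent complex and is itself a TGF-beta target, had 8.30, 7.82, 7.51 and 7.74 against 9.17, 9.30, 9.08 and 9.64, a log2 fold change of 1.45 (adjusted p = 6.41e-05). Itgb3, an integrin subunit of platelets, osteoclasts and vessels that pairs with Itgav, rose by 0.78 (adjusted p = 0.00648). Furin, the convertase that cleaves the TGF-beta precursor, fell by 0.86 (adjusted p = 0.000291), with 8.16, 7.52, 7.74 and 7.65 against 7.01, 6.85, 6.89 and 6.88. Fbn2, a fibrillin that binds the LTBPs, fell by 1.36 (adjusted p = 0.0375) and Plat, a plasminogen activator, by 0.71 (adjusted p = 0.0326). Both calls were lost when single tumors were left out, Fbn2 without cxC26 IL6KOs1 tumor 1, 3 or 4 and Plat without cxC26 scr tumor 1, 3 or 4 or cxC26 IL6KOs1 tumor 2, with adjusted p-values up to 0.0949 and 0.0997. Among 8 tested co-receptors and accessory genes, Nrros, which tethers latent TGF-beta on macrophages and microglia, rose by 0.94 (adjusted p = 0.0012), Rgmb, a BMP co-receptor, fell by 0.51 (adjusted p = 0.00298), and Eng, the endothelial co-receptor endoglin, was not called (log2 fold change 0.36, adjusted p = 0.225) except without cxC26 scr tumor 1 (0.61, adjusted p = 0.00847).

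Intracellular regulators were called in both directions. Of 25 tested SMAD cofactors and negative regulators, 7 rose and 8 fell. Tgif2, a corepressor of SMAD2 and SMAD3, had 4.03, 3.89, 4.03 and 4.13 log2 CPM against 2.46, 2.00, 2.40 and 1.77, a log2 fold change of -1.86 (limma, adjusted p = 1.78e-05). Nedd4l and Ldlrad4, both of which restrain SMAD2 and SMAD3 or their receptors, fell by 0.89 and 0.82 (adjusted p = 0.000101 and 0.0129). Wwp2, a ubiquitin ligase of SMADs, rose by 1.00 (adjusted p = 4.78e-05) and Tob1, a suppressor of BMP signalling, by 0.69 (adjusted p = 0.000751). Skil and Pmepa1, negative regulators that TGF-beta induces, rose by 0.45 and 0.84 (adjusted p = 0.00181 and 0.0088).

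Known targets of both branches also moved both ways. Of 31 tested TGF-beta response genes, 8 rose and 12 fell. Besides Thbs1, Ccn2, a matricellular growth factor, rose by 1.39 (limma, adjusted p = 0.00457) and Lox, which crosslinks collagen, by 1.15 (adjusted p = 0.0202). Sphk1, Fn1 (fibronectin) and Cdh2 (N-cadherin) fell by 1.07, 0.95 and 0.95 (adjusted p = 0.00112, 0.0197 and 5.05e-05). Lox did not pass without cxC26 scr tumor 3 or 4 or cxC26 IL6KOs1 tumor 2, nor Fn1 without cxC26 scr tumor 1 or cxC26 IL6KOs1 tumor 2 (adjusted p up to 0.0635 and 0.0583). After the regional median was removed, Ccn2 and Fn1 were no longer called.

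Of 12 tested BMP response genes, 3 rose and 5 fell. Id1, a direct target of SMAD1 and SMAD5, had 3.88, 3.93, 4.04 and 3.90 log2 CPM in the cxC26 scr tumors and 4.90, 4.90, 4.49 and 4.28 in the knockout tumors, with no overlap (log2 fold change 0.70; limma, adjusted p = 0.00307). Id3 had 4.03, 4.30, 4.57 and 4.19 against 4.57, 5.51, 4.95 and 4.75 (log2 fold change 0.67, adjusted p = 0.0149), whereas Id2 was not called (0.19, adjusted p = 0.361). Gata2 rose by 0.42 (adjusted p = 0.0095). Msx1, a homeobox gene that BMPs induce, had 5.15, 5.17, 5.38 and 5.55 against 3.92, 2.77, 3.196 and 3.57, a log2 fold change of -1.95 (adjusted p = 4.75e-05). Hey1 fell by 0.86 (adjusted p = 0.0414), a call lost without cxC26 scr tumor 2, 3 or 4 or cxC26 IL6KOs1 tumor 2, 3 or 4 (adjusted p up to 0.111), as did Bambi and Grem1, described above, and Runx2. Id1 and Id3 thus moved in the direction opposite to Msx1.

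**Figure D5:**
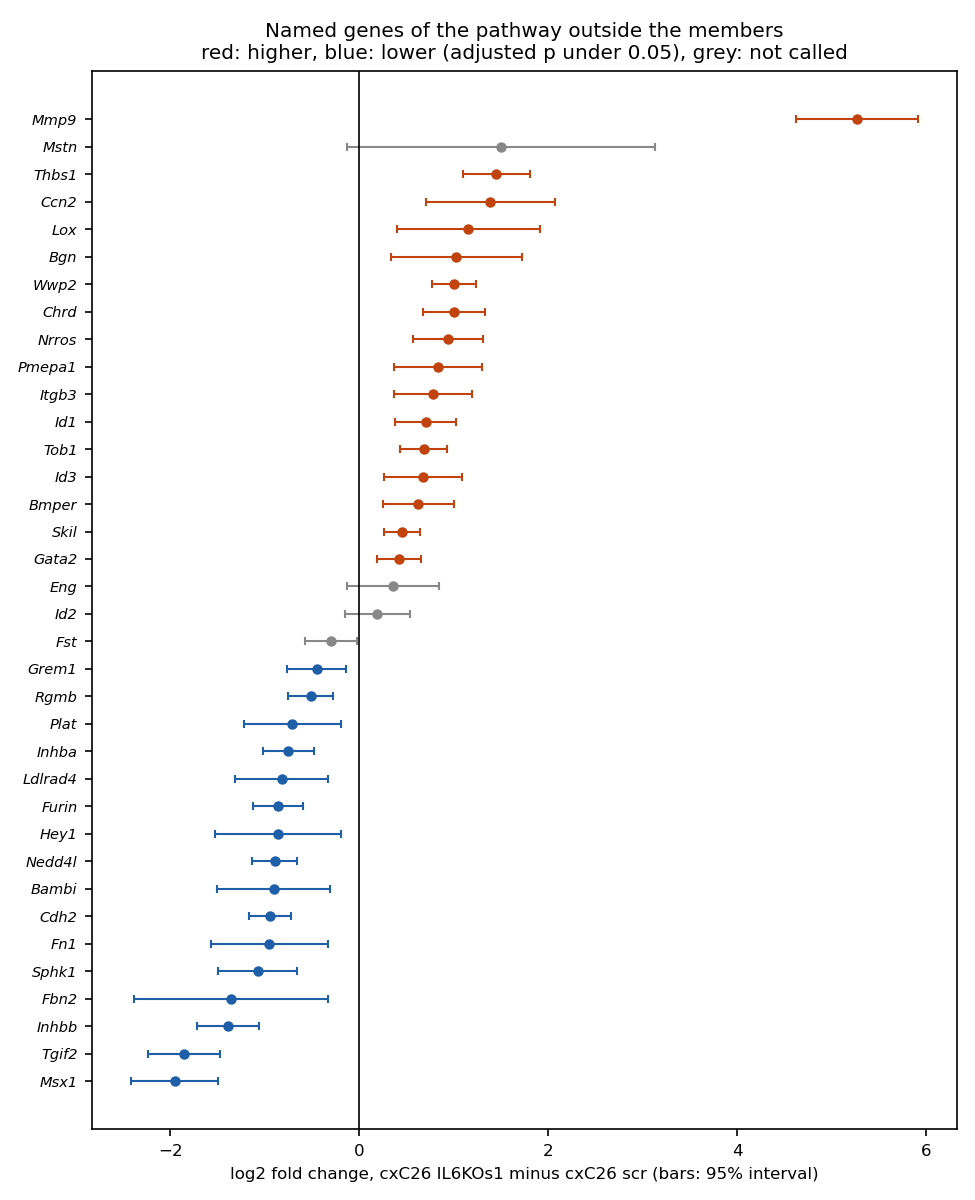
Log2 fold change (cxC26 IL6KOs1 minus cxC26 scr, horizontal axis, n = 4 tumors per group) of 36 pathway genes outside the family, with points for the limma estimate, bars for its 95% interval and colours for the call at an adjusted p of 0.05. Mmp9 lies apart at 5.27, and Tgif2 and Msx1 are the lowest, at -1.86 and -1.95.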

How the data were processed

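RNA was sequenced from 4 cxC26 scr and 4 cxC26 IL6KOs1 tumors, grouped by their titles. The authors trimmed paired reads (Trimmomatic), aligned them to mm10 (HISAT2), counted them per gene (featureCounts) and deposited log2 CPM from limma-voom. The submitters' processing notes name bcl2fastq 2.17. Strand setting and annotation are not given in the sources used here, so reads of overlapping genes, which 24 of the 49 members have in RefSeq, may be shared. Inverting the voom offset (0.5 reads) gave whole reads for every value, within 0.01 reads or, for highly read genes, a margin in proportion to their reads, and from them the depth of 14158989 to 17048062 reads per tumor, which limits the precision of low genes.

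The 13262 genes that reached 1 CPM in 4 or more tumors were tested with limma 3.58.1 in R 4.3.3 (lmFit, eBayes with a mean-variance trend, two-sided, Benjamini-Hochberg), without covariates, after a check on simulated data. Regions are fixed 10 Mb windows of RefSeq GRCm38.p6, which placed 13001 tested genes. Where a window held fewer than 10 other tested genes, the median of the chromosome was used instead. Exon lengths are unions of GENCODE M21 exons, which do not follow the isoforms used. Members and lists were chosen with earlier results of these data known. The text gives every tumor for members at least 2-fold changed and for the most abundant member of each role, and, of each pathway list, up to 3 genes called in each direction plus a set of well-known genes. Some items are not reported here. Same-numbered tumors came from different mice and did not deviate together (correlations between -0.0593 and 0.0570). The labels name no separate litters or days, so p-values measure the spread between these tumors. All pairs of libraries in a group differed by more than sampling noise. Alternatives are given in the closing section.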

Additional observations from a re-analysis of the deposited data

Results flagged for a closer look

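A tumor was singled out where its gap to the nearest of its group, over the group's range, was above Dixon's 95% critical value. This happened in 6 of the 138 groups examined, and chance gives about 1 in 20, or 6.9. In cxC26 scr tumor 1, Tgfb1 was 6.85 log2 CPM (others 6.38 to 6.42), Smad4 was 6.79 (others 6.51 to 6.56) and Smad2 was 5.93 (others 6.05 to 6.06). In cxC26 IL6KOs1 tumor 4, Smad6 was 0.64 log2 CPM (others 1.69 to 1.81). In cxC26 scr tumor 4, Fbn2, a fibrillin, was -0.42 log2 CPM (others 1.39 to 1.58). In cxC26 IL6KOs1 tumor 3, Il6 was 2.46 log2 CPM (others 1.99 to 2.04), still below every cxC26 scr tumor. Without cxC26 scr tumor 1, Tgfb1 was still called lower.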

How the results depend on the processing

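Bmp2, Gdf11, Bmpr2 and Tgfbr3 kept their call in 18 of 18 alternatives, and Acvr2b and Tgfb2 in the 17 that tested them, as both fell below the stricter filter. No called member changed sign in an alternative that tested it. Smad5 and Gdf3 were also lost without a filter on low values (limma, adjusted p = 0.0641 and 0.149) and under quantile normalization (0.0921 and 0.0643) and with plain library totals (0.0556 and 0.0502), Smad5 also after re-centring (0.0516), and Tgfbr1 and Smad5 without a mean-variance trend (0.0512 and 0.0678), as was Tgfbr1 without the filter (0.0733). Requiring a 2-fold change as well left 4 members lower (main 9), and 7 pathway genes higher (main 26) and 5 lower (main 31). Leaving out 1 tumor at a time gave 2 to 4 members higher, 7 to 9 lower and 10 to 13 not overlapping, and 23 to 30 pathway genes higher and 23 to 31 lower. With the replicate number as a block, which pairs only numbers and not mice, 3 members were higher and 10 lower, Smad7 being added (-0.36, adjusted p = 0.0282), and 27 and 30 pathway genes, with Hey1 and Bambi lost. Of the 20 uncalled members, 15 changed sign somewhere, and the cause was not tested. Regional medians removed gave Tgfb1i1 0.25, Bmp4 0.0196, Tgfbr3l 0.0414 and Bmp1 -0.0750. Quantile normalization gave Bmp4 0.0377, Smad4 0.0055, Ltbp2 0.0007, Smad1 0.0032, Smad2 0.0034 and Acvr2a -0.0167, and re-centring by the median gave Bmp4 0.0067. Leaving out 1 tumor, the log2 fold change ran from -0.17 to 0.0086 for Tgfb1i1, -0.0454 to 0.0395 for Bmp4, -0.0849 to 0.0380 for Tgfbr3l, -0.10 to 0.0105 for Smad4, -0.26 to 0.15 for Gdf10, -0.25 to 0.23 for Ltbp2, -0.0764 to 0.11 for Ltbp4, -0.0427 to 0.20 for Tgfb3, -0.11 to 0.0081 for Acvr1b, -0.29 to 0.0036 for Acvrl1, -0.16 to 0.0140 for Bmpr1a and -0.0302 to 0.14 for Acvr2a. None of the 36 named pathway genes changed sign. Of these, Id3, Grem1, Bambi, Bgn, Fbn2, Plat, Lox, Fn1 and Hey1 lost their call without the filter (limma, adjusted p from 0.0522 to 0.136). Grem1, Bgn, Plat and Hey1 also lost theirs without a mean-variance trend (0.0565 to 0.0722). So did Grem1 under quantile normalization (0.0553) and Fbn2 with regional medians removed (0.061). Few reads limit Gdf3 and Tgfb2, and 1 subclone stands for the knockout.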
